A study of Mus musculus with 3 samples.

Results

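The genes described here build the machinery that carries new secretory and membrane proteins into the endoplasmic reticulum (ER), cleaves their signal peptides and attaches N-linked glycans. The list has 32 genes, chosen by name and role with earlier results of these data known. All 32 were found on the array, through 47 probes, among 21150 named genes. They are grouped by role as the signal recognition particle and its receptor (7 genes), the Sec61 translocation channel and its helpers (6), the translocon-associated protein (TRAP) complex (4), the signal peptidase complex (5), the oligosaccharyltransferase (9) and Alg5 of lipid-linked donor synthesis. RNA came from 3 wild-type mice with caerulein pancreatitis, induced 48 h earlier in every group. Caerulein is a cholecystokinin analogue that overstimulates the enzyme-secreting acinar cells. Acinar cells, duct cells and cells of acinar-to-ductal metaplasia (ADM), in which acinar cells take on duct-like features, were cut from frozen pancreas by laser microdissection. Each cell type had 1 array, no uninjured pancreas was part of the design, and the sources do not state if the RNA on an array came from 1 mouse or was pooled. The design sets ADM cells beside duct and acinar cells, and the comparisons below ask how the secretory entry machinery differed between the 3.

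In a secreting cell, the signal recognition particle binds a signal peptide as it leaves the ribosome and docks on its receptor in the ER membrane. The chain is then handed to the Sec61 channel, where signal peptidase removes the signal peptide and the oligosaccharyltransferase transfers a preassembled glycan from the lipid dolichol to asparagine residues. Pancreatic acinar cells are known for one of the densest rough ERs of any cell, since they make large amounts of digestive enzymes.

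Levels are log2 processed signals from which the 75th percentile of the array was subtracted, so that 0 is the array's 75th percentile, and differences are given in the same log2 units. With 1 array a group no difference has a replicate check and no test was possible. A gene is counted where 2 arrays differ by at least 2-fold. The scanner software's own error of a member's difference had a median of 0.20 and a range of 0.06 to 0.32, which covers the measurement of a spot and not the spread between mice. The 3 arrays shared 1 slide and 1 scan. Of 55664 probes, 27681 were well above background in ADM, 27853 in duct and 22657 in acinar. The labels were checked against markers. All 10 acinar markers were well above background on every array, with a median level of 10.74 on acinar, 7.61 on ADM and 4.55 on duct. Duct markers had medians of -1.19, 0.89 and 3.18 in that order, 8 of 9 were well above background on the duct array, and Cftr was not on any array. The duct array thus carried acinar transcripts, and in such dissected tissue fewer cells of a type and less RNA per cell cannot be told apart.

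All 32 members were well above background on all 3 arrays, so none of the differences between members' arrays is a bound. The levels were highest in acinar cells for most of the machinery. Against acinar, 22 of 32 members were at least 2-fold lower in duct, where 24.6% of the 13829 genes compared were lower by that much, and 1 (Stt3b) was at least 2-fold higher, beside 28.3% of all genes. The median difference of the members was -1.72 (3.30-fold lower), and that of all genes compared was 0.00. In medians over all genes, bounds of unclear direction count as 0. In ADM, 19 of 32 were at least 2-fold lower than in acinar and 2 (Sec11a and Stt3a) higher, beside 22.0% and 22.6% of the 13636 genes compared, with a median of -1.18 (2.27-fold lower) and 0.00 over all genes. Against duct, ADM had 13 members at least 2-fold higher and 1 (Dad1) lower, beside 21.6% and 24.8% of 14476 genes, with a median of 0.67 and -0.05 over all genes. The 3 comparisons share arrays and are not independent. Of all genes called between duct and acinar, 53.5% were higher in duct, against 65.7% after normexp background correction and 65.4% after scaling to the median of the array. Between ADM and acinar the share was 50.7%, and 64.4% after normexp. Scaling to the median moved the median of all genes by 0.32 in duct against acinar and to -0.20 in ADM against duct, and the members' median, at -1.34 between duct and acinar, stayed below it.

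Since members were measured on every array, the same counts were also read against genes of like kind. Among the 9543 genes well above background on all 3 arrays, 25.2% were at least 2-fold lower in duct than in acinar, 21.6% were lower in ADM than in acinar and 18.0% were higher in ADM than in duct. Without bounds, the median differences of these genes were -0.15, -0.23 and -0.03, beside -1.72, -1.18 and 0.67 for the members. Among the 3311 of the 9543 genes with a mean level of at least 2, the shares were 21.4%, 15.2% and 13.8%, and the 23 members in that range gave 14, 14 and 6. The summed signal of the members was 0.296% of the named-gene signal for acinar cells, 0.197% for ADM and 0.195% for duct.

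**Figure D1:**
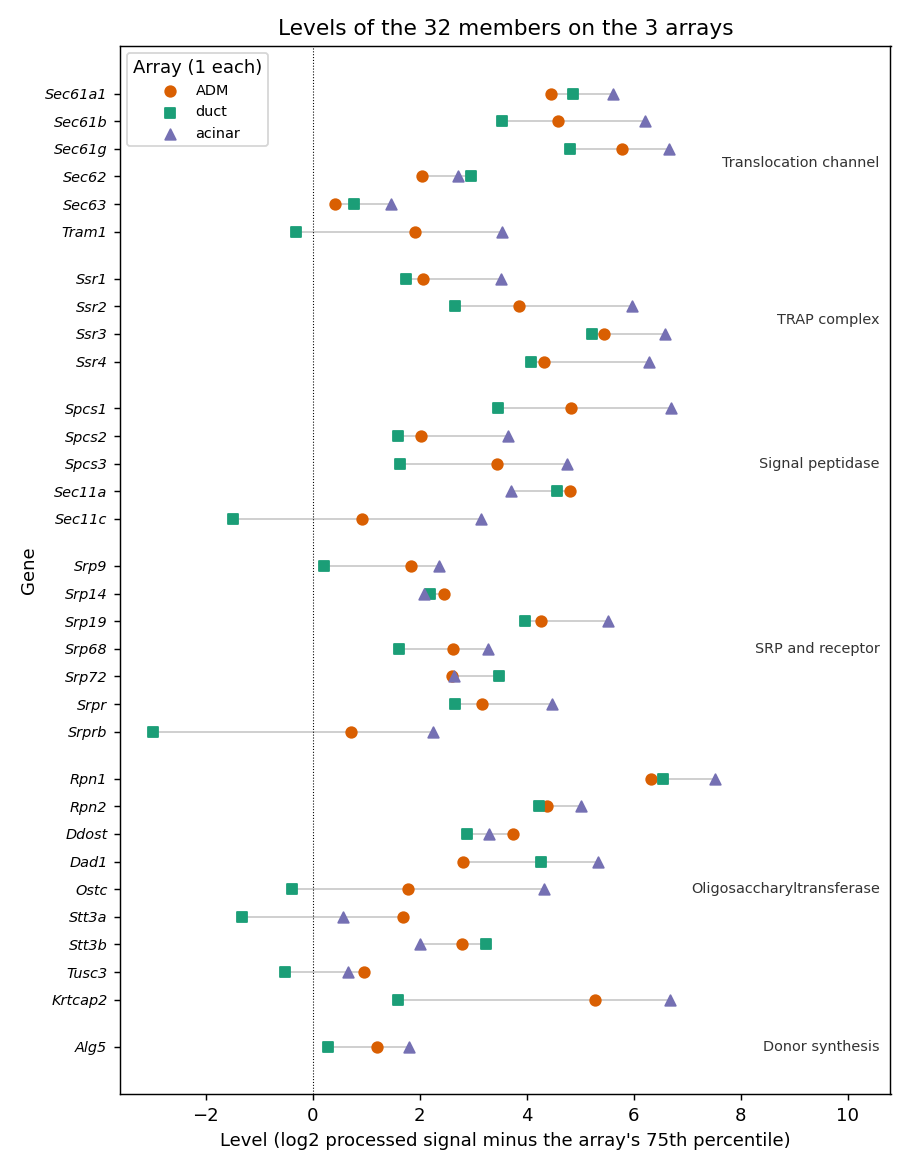
Levels of the 32 members on the ADM (circle), duct (square) and acinar (triangle) arrays, as log2 processed signal minus the array's 75th percentile, with 1 array per cell type and no error bars. Grey lines join the lowest and the highest array of a gene. Triangles lie farthest right in 24 of 32 genes, and the widest gaps are those of Srprb, Krtcap2, Ostc and Sec11c, where the duct square lies far to the left.

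The order of the arrays repeated across the machinery. The acinar array was the highest for 24 of 32 members, against 42.3% of the 9543 genes well above background on all arrays. For 20 members the order was acinar, then ADM, then duct, an order seen in 26.5% of those genes. ADM was the lowest array for 6 members (Sec61a1, Sec62, Sec63, Srp72, Rpn1 and Dad1), against 31.6% of genes. By the brightest probes of Sec61a1, Sec62, Sec63, Srp72 and Rpn1, the ADM level lay within 1 log2 unit of the next lowest array. For Srp72 it was 2.60 against 2.65 in acinar, closer than the error of a spot. A dimmer probe of Sec63 gave -1.42 for ADM against duct. The remaining 6 members were highest in ADM (Sec11a, Srp14, Ddost, Stt3a and Tusc3) or in duct, in the order duct, ADM, acinar (Stt3b).

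Of the 7 targeting genes, 5 were at least 2-fold lower in duct than in acinar and 3 were lower in ADM, with none higher. The particle itself holds Srp9 and Srp14, which pause elongation, Srp19, which helps the RNA of the particle fold, and the Srp68 and Srp72 pair. Srp9 stood at 2.36 in acinar, 1.84 in ADM and 0.20 in duct cells, which made it 4.45-fold lower in duct than in acinar and within 2-fold between ADM and acinar. Srp19 had levels of 5.53, 4.27 and 3.97 by its brightest probe and was at least 2-fold lower in both ADM and duct. A dimmer Srp19 probe gave -1.36 for ADM and -0.79, within 2-fold, for duct. Srp68, at 3.27, 2.62 and 1.61, was 3.14-fold lower in duct. Its partner did not follow: by its brightest probe Srp72 was at 2.65, 2.60 and 3.48. That is a difference of 0.83 between duct and acinar in the other direction, within 2-fold. A dimmer Srp72 probe, also well above background on every array, gave -0.007 there. Srp14, whose probe was spotted 10 times on each array, had levels of 2.09, 2.45 and 2.19, with a spot SD of 0.05 to 0.07, and lay within 2-fold in all 3 comparisons. Thus partners within the particle (Srp9 with Srp14, Srp68 with Srp72) differed from each other in duct against acinar.

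The receptor has a soluble subunit, Srpr, which binds the particle, and a membrane-anchored GTPase subunit, Srprb. Srpr was at 4.47 on acinar, 3.17 on ADM and 2.67 on duct, differences of -1.30 and -1.80 from acinar. Srprb was at 2.26, 0.72 and -2.99. Its 37.9-fold lower level in duct was the largest difference between these 2 arrays among the members, and 1.14% of the genes compared had a lower value. The duct value lay just above the lowest signal counted as well above background there (-3.28), and its spot error was the largest of any member (0.29). A dimmer probe of Srprb was well above background on ADM alone and gave ADM at least 0.35 higher than acinar, where the brighter probe gave -1.54, so the direction of Srprb between ADM and acinar is not settled by these probes.

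The channel subunits divided between the pore and its small partners. Sec61a1, the pore itself, was at 5.62 on acinar, 4.45 on ADM and 4.87 on duct. It was 2.25-fold lower in ADM than in acinar and within 2-fold (-0.75) in duct. Sec61b, at 6.21, 4.59 and 3.54, was 3.07-fold lower in ADM and 6.36-fold lower in duct, and Sec61g, at 6.66, 5.78 and 4.80, was 1.84-fold and 3.62-fold lower. The small subunits thus followed the order acinar, ADM, duct, whereas the pore was lowest in ADM. Tram1, a membrane protein next to the channel that helps many signal peptides insert, had the widest gap of this group, at 3.54, 1.91 and -0.32, which is 14.5-fold lower in duct than in acinar.

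Sec62 and Sec63 form the arm of the channel that serves weak signal peptides and recruits the chaperone BiP. Sec63 was at 1.46 on acinar, 0.41 on ADM and 0.77 on duct, 2.08-fold lower in ADM and within 2-fold in duct. Sec62 was at 2.72, 2.05 and 2.96, within 2-fold in all 3 comparisons. A dimmer probe of Sec62 was well above background on acinar alone and gave bounds of -3.63 for duct and -3.45 for ADM against acinar, so the small differences of Sec62 rest on 1 probe.

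The TRAP complex sits at the channel and aids the entry of some precursors. By their brightest probes, all 4 of its genes were at least 2-fold lower in both ADM and duct than in acinar. Their median was 3.26-fold lower in ADM and 3.99-fold lower in duct. Ssr2 was at 5.97 on acinar, 3.85 on ADM and 2.66 on duct, 4.36-fold and 9.94-fold lower. Ssr4 was at 6.28, 4.33 and 4.07, and Ssr1 at 3.52, 2.07 and 1.74. Ssr3 differed least, at 6.58, 5.45 and 5.21. ADM and duct were close for Ssr1, Ssr3 and Ssr4, with differences of 0.33, 0.23 and 0.25, and Ssr2 was 2.28-fold higher in ADM.

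Signal peptidase showed opposite values for its alternative catalytic subunits. Sec11c was at 3.15 on acinar, 0.92 on ADM and -1.48 on duct, 4.68-fold lower in ADM and 24.8-fold lower in duct. Sec11a was at 3.71, 4.81 and 4.57, which placed ADM 2.15-fold and duct 1.82-fold above acinar. A dimmer probe of Sec11a gave 1.08 for ADM against acinar, close to the brighter probe, and 0.18 for duct. The other subunits sided with Sec11c. Spcs1, a small membrane subunit, was at 6.70, 4.83 and 3.47. Spcs3, a subunit needed for cleavage, was at 4.76, 3.44 and 1.63, 8.70-fold lower in duct than in acinar. Spcs2 was at 3.65, 2.02 and 1.59. Each of these 3 was at least 2-fold lower in both ADM and duct.

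**Figure D2:**
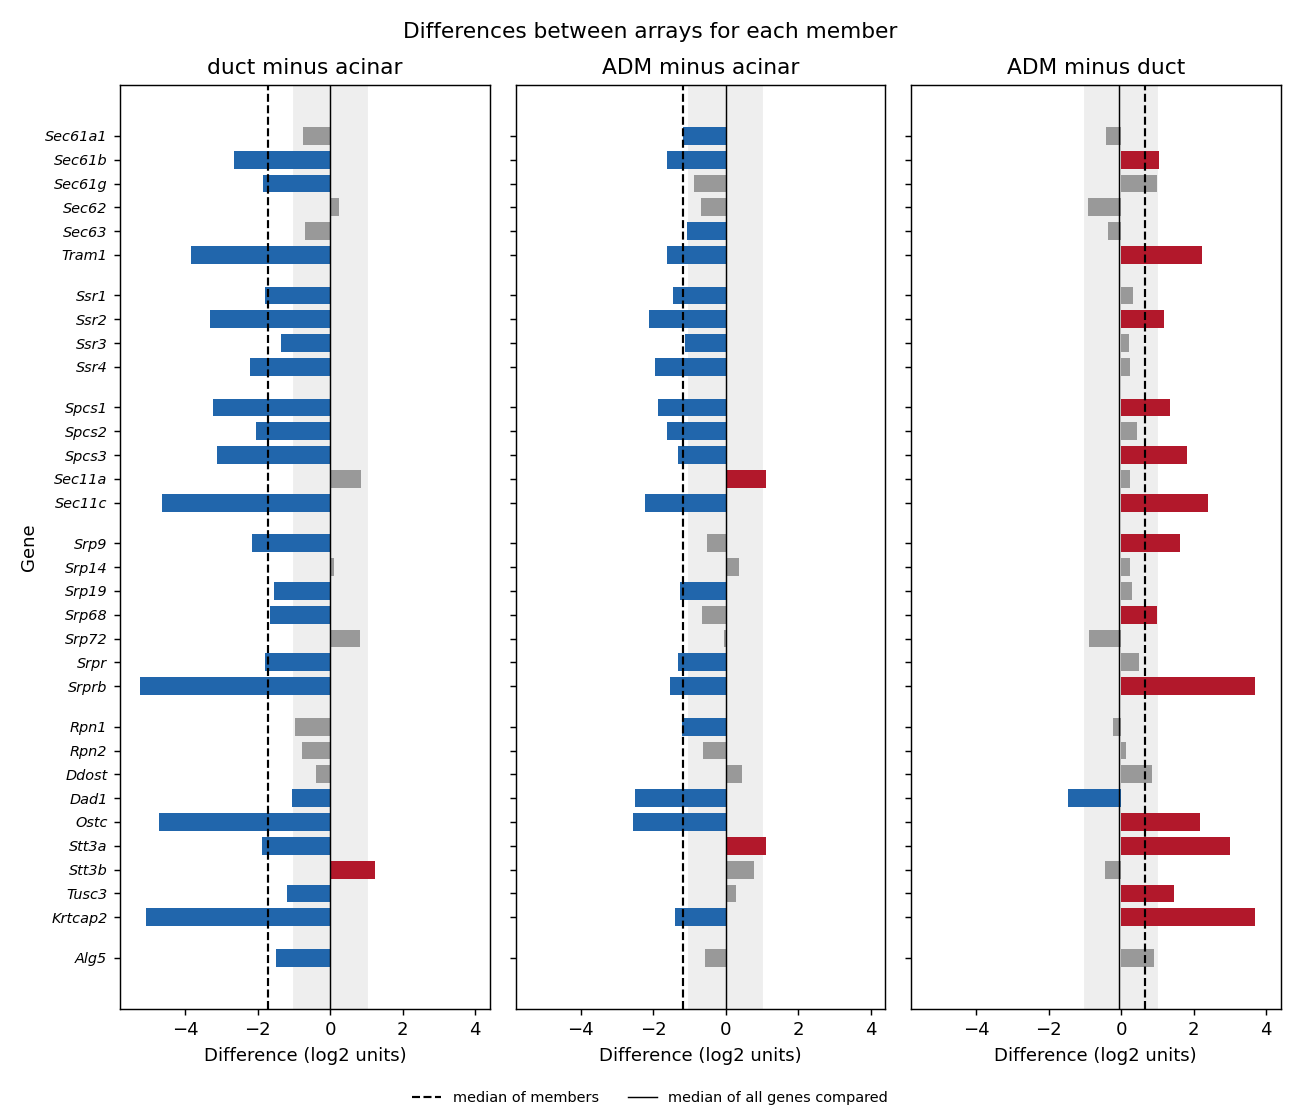
Differences between arrays for each member, in log2 units, for duct minus acinar, ADM minus acinar and ADM minus duct. Blue bars are at least 2-fold lower, red bars at least 2-fold higher and grey bars within 2-fold (shaded band), the dashed line is the median of the members (-1.72, -1.18 and 0.67) and the solid line that of all genes compared. The 3 panels share arrays and are not independent.

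Subunits of the oligosaccharyltransferase ranged from 33.8-fold lower (Krtcap2) to 2.34-fold higher (Stt3b) in duct than in acinar. The core subunits Rpn1, Rpn2 and Ddost lay within 2-fold between duct and acinar, at -0.98, -0.77 and -0.40. Rpn1 was at 7.53 on acinar, 6.33 on ADM and 6.54 on duct, 2.30-fold lower in ADM than in acinar. Rpn2, at 5.01, 4.38 and 4.24, and Ddost, at 3.29, 3.74 and 2.89, lay within 2-fold in all 3 comparisons. Dad1, a small core subunit, differed from these, at 5.32, 2.82 and 4.28: it was 5.69-fold lower in ADM than in acinar and 2.07-fold lower in duct. By brightest probes it was the only member at least 2-fold lower in ADM than in duct. Dimmer probes of Ssr1 (-2.10) and Sec63 (-1.42) were also lower by that much. The Dad1 values rest on 1 probe, since its other probe was not well above background on any array.

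The enzyme exists in a form built on Stt3a, which works on chains as they enter through the channel, and a form built on Stt3b, which also modifies sites that were skipped. Stt3a was at 0.56 on acinar, 1.69 on ADM and -1.32 on duct, so that ADM was 8.04-fold above duct and 2.18-fold above acinar. Stt3b was at 2.01, 2.79 and 3.23 and was the only member at least 2-fold higher in duct than in acinar (1.23, with 1.17 from its other probe). In duct against acinar, the catalytic subunits therefore went in opposite directions.

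Ostc and Krtcap2 join the Stt3a form. Ostc was at 4.33 on acinar, 1.78 on ADM and -0.39 on duct, 5.83-fold lower in ADM and 26.3-fold lower in duct. Krtcap2 was at 6.67, 5.28 and 1.59, 2.63-fold lower in ADM and 33.8-fold lower in duct, and 12.9-fold higher in ADM than in duct. Both partners were thus lower in ADM than in acinar, while Stt3a itself was higher. Tusc3, an oxidoreductase subunit of the Stt3b form, was at 0.67, 0.95 and -0.52, 2.27-fold lower in duct and within 2-fold between ADM and acinar. Alg5, which makes the glucose donor for the lipid-linked glycan, was at 1.79, 1.21 and 0.29, 2.82-fold lower in duct and within 2-fold (-0.58) in ADM.

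The calls depended on how signal was corrected and scaled. Under the other scalings and the authors' deposited value table, 19 of the 22 members lower in duct than in acinar stayed at least 2-fold lower, as did 13 of the 19 lower in ADM. Normexp background correction, which adds an offset to the signal, left 14 of the 22 and 7 of the 19 when required together with those settings. It moved some values up, such as Rpn1 between duct and acinar from -0.98 to -0.30 and Sec11a from 0.86 to 1.40. The 14 were Sec61b, Sec61g, Tram1, Ssr2, Ssr4, Spcs1, Spcs2, Spcs3, Sec11c, Srp9, Srpr, Srprb, Ostc and Krtcap2. The 7 were Sec61b, Ssr2, Ssr4, Spcs1, Sec11c, Dad1 and Ostc. Calls fell over all genes too. With normexp, 10.9% of all genes compared were at least 2-fold lower in duct than in acinar and 6.92% in ADM. The main processing gave 24.6% and 22.0%. Of 13 members higher in ADM than in duct, 10 kept the call under all of these settings, and the lost ones were Sec61b, Ssr2 and Srp68. Stt3b (higher in duct), Sec11a (higher in ADM than in acinar) and Dad1 (lower in ADM than in duct) kept theirs, and Stt3a lost its call between ADM and acinar.

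Of the members, 14 had more than 1 probe. Where at least 2 probes of a gene could be compared, all had the same sign in 10 of 12 genes for duct against acinar (not Sec62 and Srp72) and in 11 of 13 for ADM against acinar (not Srprb and Srp72). For ADM against duct this held in only 7 of 12, the exceptions being Spcs2, Spcs3, Srp19, Srp72 and Ssr1. In no gene were probes opposed by at least 2-fold on both sides of 0. The difference between ADM and duct thus rests more on the choice of probe than the differences from acinar do. For Ssr1 the brightest probe gave 0.33 for ADM against duct and a dimmer one -2.10, and for Spcs3 the values were 1.81 and -0.30. For Sec61b the dimmer probe gave the larger differences, -4.59 in duct and -2.34 in ADM against acinar.

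**Figure D3:**
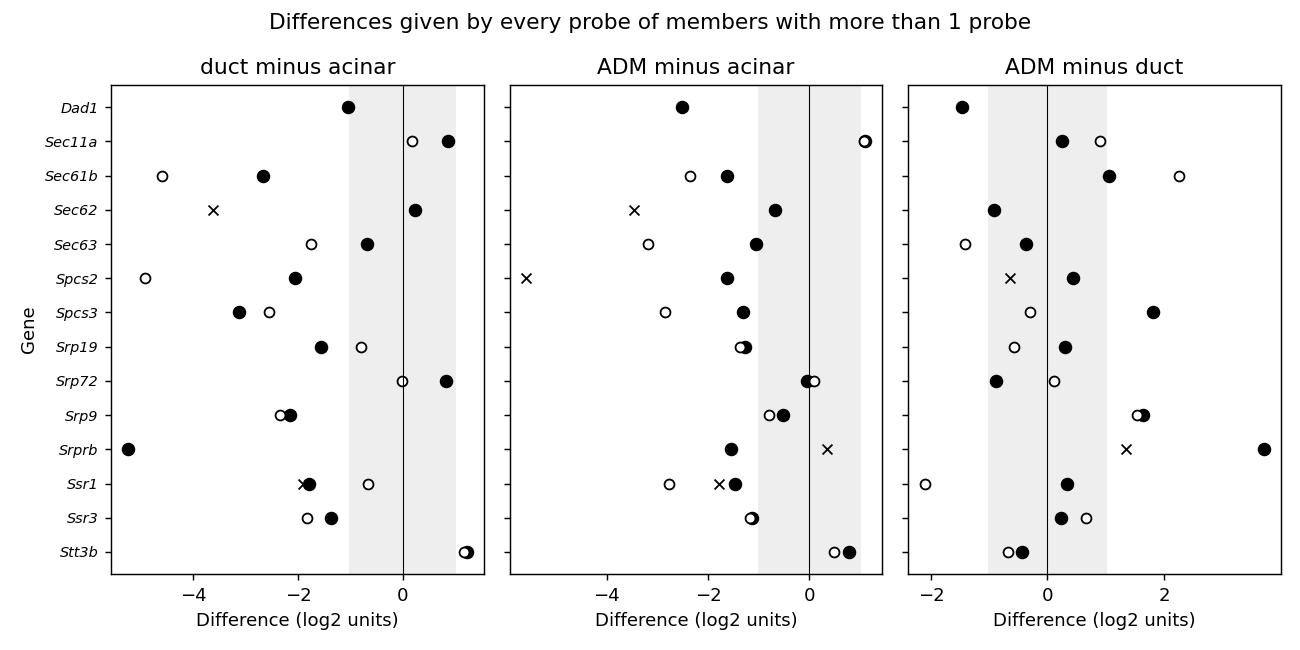
Differences given by every probe of the 14 members with more than 1 probe, in log2 units. Filled circles are the brightest probe, which stands for the gene, open circles are other probes, and crosses are bounds where a probe was well above background on only 1 of the 2 arrays. Probes of a gene share a side of 0 in 10 of 12 genes in the left panel, 11 of 13 in the middle and 7 of 12 in the right.

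Other genes of the same pathway were read from 6 further lists with 89 genes on the array. Of 83 compared between duct and acinar, 28 (33.7%) were at least 2-fold lower and 22 (26.5%) higher, beside the 24.6% and 28.3% of all genes given above, with a median of -0.02. That median depended on the probes and genes used. When probes of a gene were averaged, 34 of 83 were lower (median -0.40), beside 24.7% of all genes. With the second-brightest probe 9 of 18 were lower and 2 higher (-1.20), beside 29.5% and 25.9%. Among genes well above background on all 3 arrays, as all members are, 23 of 64 were lower and 11 higher (-0.37). Of all genes in that set, 25.2% were lower and 24.1% higher (-0.15). Between ADM and acinar, 17 of 85 (20.0%) were lower and 21 (24.7%) higher (median 0.00), near the 22.0% and 22.6% of all genes. Between ADM and duct, 22 of 85 (25.9%) were higher and 17 (20.0%) lower (median 0.11), beside 21.6% and 24.8% of all genes. Counts of single lists below have the same background: 24.6% lower and 28.3% higher in duct, and 22.0% and 22.6% in ADM, against acinar. Bounds made up 18 of the 83 values and 16 and 8 of the 85, whereas no member had one. No test of the difference between members and these lists was made.

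Against acinar, the lists nearest to the channel were the most like the members. Other targeting and translocation genes were at least 2-fold lower in duct than in acinar in 7 of 13, with 1 higher and a median of -1.11. In ADM 6 of 13 were lower and 1 higher (-0.97). Dnajb11, an ER co-chaperone, was 6.36-fold lower in duct and 4.01-fold lower in ADM. Hyou1, a nucleotide exchange factor for BiP, was 5.97-fold and 12.9-fold lower, and Dnajc3, another co-chaperone, 5.86-fold lower in duct. Hspa5, which encodes BiP, was 3.25-fold lower in ADM. Among other oligosaccharyltransferase subunits, Magt1, the alternative to Tusc3 in the Stt3b form, was 4.80-fold lower in duct and 6.07-fold lower in ADM than in acinar. Tmem258 was 3.57-fold lower in duct, and Ost4 was 3.32-fold lower in ADM than in acinar and 3.03-fold lower in ADM than in duct. Between ADM and duct, other targeting and translocation genes had 1 of 13 higher in ADM and 2 lower (median 0.17). Other oligosaccharyltransferase subunits had 1 of 3 higher and 1 lower (-0.34). There the membrane insertion genes, with 7 of 22 higher and 3 lower (0.58), had the median closest to the members' 0.67.

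Upstream of the enzyme, genes that build the lipid-linked glycan went both ways. Of 20 compared between duct and acinar, 4 were at least 2-fold lower and 8 higher (median 0.59), and in ADM 3 of 21 were lower and 7 higher (0.27). Bounds made up 7 of the 20 and 7 of the 21 values. The mannosyltransferase Alg9 exceeded its acinar level 16.1-fold in duct and 9.91-fold in ADM, and Mpdu1, needed for use of the mannose and glucose donors, was 3.75-fold higher in duct. The mannosyltransferase Alg3 was 5.49-fold lower in duct, and Alg12 was 5.07-fold lower in ADM than in acinar. ADM exceeded acinar 6.05-fold for Alg10b, a glucosyltransferase. Against duct, Alg2 was 13.4-fold lower in ADM, and Alg3 and Alg14 were 4.23-fold and 3.80-fold higher. Alg5 thus lay lower in duct in a pathway with more genes higher than lower there.

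Genes for insertion of membrane proteins without, or beside, the Sec61 pore were also mixed against acinar. Between duct and acinar 6 of 21 were lower and 7 higher (median 0.20), and between ADM and acinar 2 of 22 were lower and 10 higher (0.31). Bounds made up 3 of the 21 and 4 of the 22 values. Tmem147 and Ubl4a were 4.29-fold and 4.24-fold lower in duct than in acinar, and Get4, of the tail-anchor pathway, was 4.15-fold higher. In ADM, Nomo1 was 11.7-fold lower than in acinar, whereas Emc9, of the ER membrane protein complex, and Bag6 were 4.34-fold and 4.26-fold higher. Against duct, Get4 and Nomo1 were 5.74-fold and 3.96-fold lower in ADM, and Mmgt1 was 4.63-fold higher.

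Trimming and quality control of the glycan in the ER had 5 of 12 genes lower and 1 higher in duct than in acinar (median -0.37), and 3 of 12 lower and 1 higher in ADM (0.00). Prkcsh, the regulatory subunit of glucosidase II, was the gene that was higher, by 14.7-fold in duct and 10.3-fold in ADM. Mogs, glucosidase I, was 7.91-fold lower in ADM than in acinar. Edem1 was 5.31-fold lower in duct and 3.37-fold lower in ADM, and Edem3 5.54-fold lower in duct and 6.20-fold higher in ADM than in duct. Golgi processing genes had 4 of 14 lower and 5 higher in duct than in acinar (median 0.16), and 1 of 14 lower and 2 higher in ADM (0.07). Bounds made up 6 and 4 of these 14 values. Mgat4a, a branching enzyme, was 3.72-fold lower in duct than in acinar and 7.20-fold higher in ADM than in duct, and Mgat2 was 2.64-fold lower in duct and 3.63-fold lower in ADM than in acinar. Mgat3, which adds the bisecting residue, was 21.6-fold lower in ADM than in duct.

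**Figure D4:**
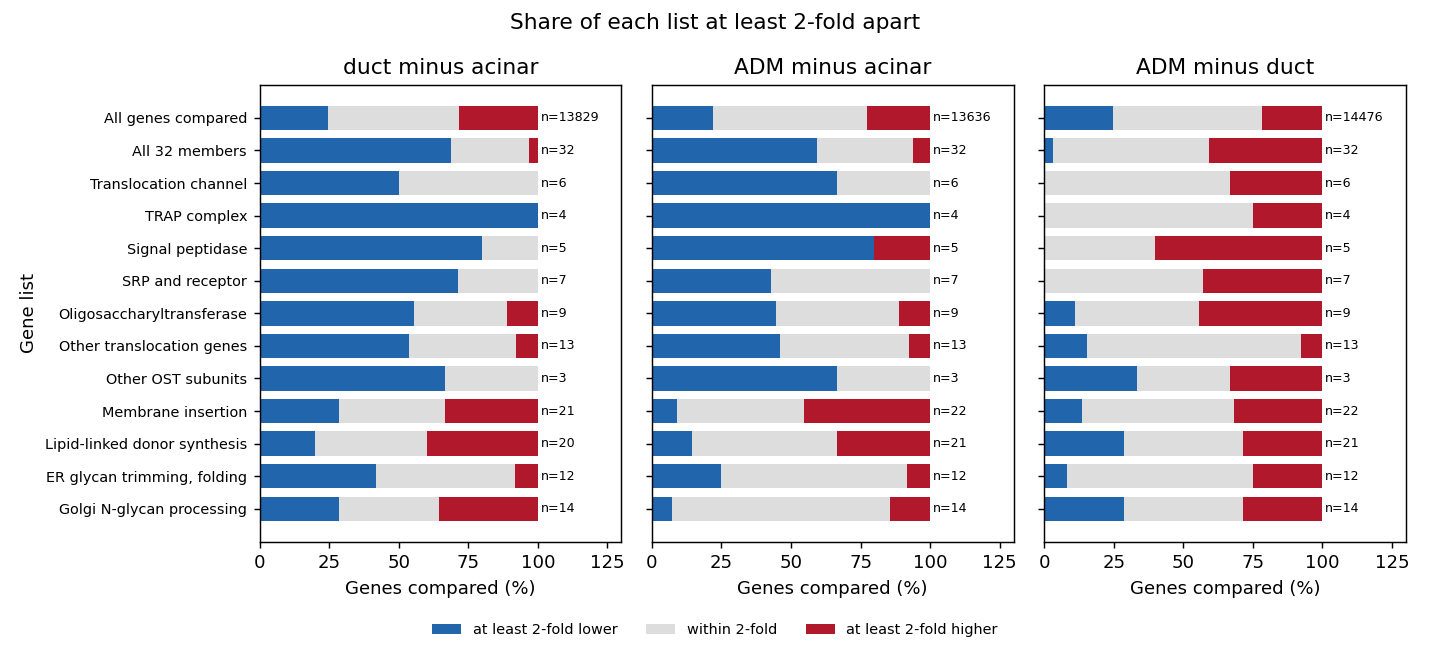
Share of the genes compared in each list that were at least 2-fold lower (blue), within 2-fold (grey) or at least 2-fold higher (red), in percent, with the number of genes compared (n) beside each bar. In the left and middle panels the blue bars hold 22 and 19 of 32 members, 7 and 6 of 13 other translocation genes, and 2 of 3 other OST subunits in each. Donor synthesis, membrane insertion and Golgi processing hold more red than blue there, for Golgi processing only 5 against 4 and 2 against 1. Counts of the other lists include bounds.

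Markers of other cells also differed between the arrays. Acinar markers were at least 2-fold lower in duct in 10 of 10 and in ADM in 9 of 10 (median -5.22 and -2.16), larger shifts than those of the members, and their share of the named signal was 6.93% on acinar, 3.09% on ADM and 0.746% on duct. For macrophages, 9 of 10 markers were at least 2-fold higher in ADM (median 2.49 against acinar), with shares of 0.0165% on acinar, 0.0815% on ADM and 0.0253% on duct. Fibroblast markers were higher in 8 of 9 in ADM and 7 of 9 in duct, with shares of 0.0202%, 0.125% and 0.158%. Islet markers held 0.191%, 0.463% and 0.334%, and endothelial markers 0.00363%, 0.00478% and 0.00741%. The part of these cells in the members' differences was not tested. Plasma cells also have a dense rough ER, and B and plasma cell markers were in part below detection: Ms4a1, Mzb1, Tnfrsf17 and Pou2af1 were not well above background on any array, whereas Sdc1, which epithelium also makes, was on all 3, Cd79a on ADM, and Cd79b and Jchain on duct.

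Promoters of the members were searched because many members shared an order of the arrays, and because the unfolded protein response factors ATF6 and XBP1 are known to bind defined elements in genes of this kind. The windows, from RefSeq on GRCm38.p6, run from 250 bases before to 50 bases after a start site, and 23 of 32 members had one. The ATF6 element ERSE (CCAAT, any 9 bases, then CCACG) was in none of the 23, and in 0.137% of 27025 genes of the table. Among the other pathway genes, 5 of 74 held it (Alg12, Calr, Canx, Dnajc3 and Hspa5). Its shorter form, ERSE-II (ATTGG, any base, then CCACG), was in 1 member (Krtcap2), in 1 of the 74 other pathway genes (Dnajb11) and in 0.0444% of genes. The XBP1 core, GACGTG on either strand, was in 5 of 23 members (21.7%), in 9 of the 74 other pathway genes, Hspa5 and Mogs among them, and in 7.15% of genes. The longer UPRE form, TGACGTG, which contains that core, was in 1 member (Srpr), in 4 of the 74 and in 2.22% of genes.

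The stretches that hold these matches are shown 5′ to 3′ on the strand of the gene, since they let the elements be set beside the levels above. Capitals mark the match, and positions count from the start site. The Srpr match lies 13 to 7 bases before the start (chr9:35211175-35211202, plus strand), that of Sec63 21 to 16 bases before (chr10:42761460-42761495, plus strand), that of Srp14 18 to 13 bases before (chr2:118479697-118479729, minus strand), that of Ssr1 25 to 20 bases before (chr13:37994213-37994248, minus strand) and that of Dad1 at positions -146 to -141 (chr14:54254055-54254090, minus strand). The Krtcap2 match lies 17 to 27 bases after a start (chr3:89246490-89246500, plus strand).
Srpr: cgggggctgctggtgTGACGTGtcccgc
Sec63: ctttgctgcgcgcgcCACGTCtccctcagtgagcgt
Srp14: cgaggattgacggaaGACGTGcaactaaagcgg
Ssr1: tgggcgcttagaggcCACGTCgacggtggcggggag
Dad1: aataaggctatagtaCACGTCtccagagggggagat
Krtcap2: ATTGGACCACG
Of the 5 genes with the XBP1 core, Srpr, Ssr1 and Dad1 were at least 2-fold lower in both ADM and duct than in acinar by their brightest probes. Sec63 was lower in ADM alone by its brightest probe, and in duct too (-1.76) by its dimmer one. Srp14 was within 2-fold in all 3 comparisons. Srprb, Sec61b and Spcs1, all lower in duct, had windows without a match. A match is a description of the letters, and binding was not measured.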

How the data were processed

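Scanner tables of 3 Agilent 1-colour arrays (ADM, duct, acinar) were used. Per the labels, 1.181 ng RNA was amplified and 2.0 µg cDNA labelled with Cy3. Spot intensity was written by Agilent Feature Extraction 11.5.1.1, after background subtraction and spatial detrending inside each array, per the file headers. The software's error, the raw and background intensity and flags, also deposited, were used too. The authors' deposited value table holds log2 values that equal log2 of the scanner's signal minus 1 constant an array, within 0.001, in 32905 of 32905 matched probes, with column medians of -0.56 (ADM), -0.63 (duct) and -0.57 (acinar), so genes were not centred and the sign is that of the signal.

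Control spots and outlier spots (110 to 117 per array) were dropped, and with them 17 probes. Remaining spots were averaged in log2 by probe, and the 75th percentile over 55664 probes was subtracted. RefSeq accessions named 28020 probes through a GRCm38.p6 table, used for names only since probes were annotated on mm9; 27644 stayed unnamed here. The brightest probe by mean over arrays stood for a gene. Genes entered a comparison if that probe was well above background on either array. Where only 1 side was, the dim side took its own signal or, if higher, the array's lowest well-above-background signal, and the difference is a bound. A bound that came out against the measured side was set to 0.

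Members and lists were chosen with earlier results of these data known. All members are named, with up to 3 genes of each other list per comparison, those with the largest differences on 2 measured arrays. The files hold no mean spot signal, so normexp (limma 3.58.1, offset 50) used median signals. The B and plasma cell marker list is reported in part. The code was tested on simulated data. Analyses used Python 3.11.15 and R 4.3.3.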

Additional observations from a re-analysis of the deposited data

How the results depend on the processing

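Of the 10 alternatives, 9 were listed at the start and 1 (genes with a mean level of at least 2) was added after seeing the data. The cause of each shift was not tested, except that the second-brightest probe and the 2 filters leave fewer genes. Normexp correction gave 14 of 32 members lower and 3 higher in duct than in acinar (median -0.89), beside 10.9% and 20.8% of all genes. In ADM it gave 7 lower and 1 higher (-0.66), beside 6.92% and 12.5%. For the other pathway genes it gave 18 lower and 13 higher in duct, 9 and 12 in ADM, and 7 lower in ADM than in duct. Median scaling gave 3 members higher in duct than in acinar, beside 35.1% of all genes, and 3 lower in ADM than in duct, beside 27.9%. The members' medians were -1.34 in duct and -0.96 in ADM against acinar, and that of the other genes was 0.34 in duct. Quantile normalization gave 2 members higher in duct, beside 29.6% of all genes, and a median of -0.93 in ADM. The second-brightest probe gave 7 of 12 members lower in duct than in acinar, beside 29.5% of all genes. In ADM it gave 8 of 13 lower and 1 higher, beside 24.6% and 24.3%. For ADM against duct, 3 of 12 (25.0%) were higher and 2 lower (-0.094), beside 29.1% and 24.2%. With that probe the other genes gave 9 of 18 lower and 2 higher in duct (-1.20), and 9 and 2 of 18 in ADM (-0.97). Between ADM and duct, 5 of 19 were lower and 10 higher in ADM (1.26). The mean of the probes gave medians of -0.40 for the other genes in duct and 0.40 in ADM against duct. Among genes well above background on all arrays, 11 of 64 others were higher in duct (-0.37), 11 in ADM and 13 in ADM than in duct. The shares of all such genes were 24.1%, 17.7% and 18.0%. A mean level of at least 2 left 14 of 23 members lower in duct, 1 higher in ADM, and 6 higher in ADM than in duct (0.30). The shares of all genes in that range were 21.4%, 15.6% and 13.8%. Srprb turned to 0.35 in ADM against acinar with either the mean of its probes (0.346) or the second probe (0.352), and Spcs3 to -0.30 in ADM against duct with the second. With 1 array a group, no replicate could be left out, and signal near background limits Srprb in duct.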
